A study of Mus musculus with 22 samples.

Results

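The 38 interferon-stimulated genes described here were taken from a list of symbols, each matched to its Ensembl row in count tables of the mouse ulna. All 38 had exactly 1 row among the 25471 genes listed, and all 38 entered the tests on 18793 genes. The ulna is a bone of the forelimb, and its middle stretch was sequenced as total RNA. 4 mice were conditional knockouts (CKO) of Tlr4, which the series title places in osteoblasts, the bone-forming cells, and 7 mice were wildtype (WT). In every mouse the right ulna had been loaded mechanically and the left had not, which gave 4 CKO loaded, 4 CKO non-loaded, 7 WT loaded and 7 WT non-loaded libraries. The labels name neither the Cre driver nor the strain, sex or age of the mice, nor the regime or timing of loading. Library totals ran between 21999891 and 42833729 counts.

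The genotype labels were looked at before the results. Tlr4 itself did not separate the groups, at 24.9 to 33.8 CPM (counts scaled to a common library size with TMM factors) in CKO and 24.9 to 42.2 CPM in WT libraries. A count over the whole gene does not show a deletion limited to some cells or exons. Ltbp2, a microfibril protein gene picked out by its values in earlier results of these data, had 205 CPM or more in all CKO libraries but 1 and 73.5 CPM or less in all WT libraries but 1. The library labelled CKO loaded 688 had 38.4 CPM of it, and the library labelled WT loaded 686 had 380 CPM. The comparisons below use the labels as given, and the group comparisons and the slopes on marker scores are repeated without mice 686 and 688.

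Interferons are secreted proteins that put cells into an antiviral state. Type I interferons bind the receptor made of Ifnar1 and Ifnar2, and the kinases Jak1 and Tyk2 then phosphorylate Stat2, which joins Irf9 in a complex that binds the interferon-stimulated response element in the promoters of target genes. Interferon gamma acts through its own receptor, and its signal reaches target genes at the gamma-activated site. Tlr4, the receptor for bacterial lipopolysaccharide, can itself start interferon beta production through the adaptor Ticam1 and the factor Irf3. The products of the target genes sense viral nucleic acid (Ddx58, Ifih1, Dhx58, Zbp1), amplify the response (Irf7, Irf9, Stat2), block translation or degrade RNA (the Ifit and Oas families, Eif2ak2, Isg20), form GTPases that act on membranes and pathogens (Mx, immunity-related GTPases, Gbp), or attach the ubiquitin-like protein Isg15 to others and take it off again (Herc6, Usp18). Blood-forming cells of the marrow, which a piece of long bone contains, are known to respond to interferon.

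The response element was searched in RefSeq promoters on GRCm38.p6, each covering the 250 bases before and 50 bases after a start site. 30 of the 38 genes had a promoter entry. The core GAAANNGAAA, on either strand, was present in a promoter of 18 of these 30 (60%) and of 3.99% of all 27025 genes with an entry (3.44% of 32851 promoters). With 3 bases between the repeats (GAAANNNGAAA) it was present for 5 of 30, and for 3.17% of all genes. The gamma-activated site TTCNNNGAA was present for 8 of 30 (26.7%), and for 9.55% of all genes. Stretches upstream of the start site are shown for 7 genes described below that hold the core there, 5′ to 3′ on the strand of the gene, with the matched bases in capitals. Runs of T on this strand are the core read from the opposite strand. For Stat2, Bst2, Ifit3 and Ifit3b, the bases after the RefSeq start site were not found near the start of a GENCODE M21 transcript of the gene. Isg15 held 3 overlapping cores, and the stretches of Ifit3 and Ifit3b, neighbouring genes on chromosome 19, differed at 0 of 68 positions.
Rsad2 (chr12:26456551-26456584, minus strand): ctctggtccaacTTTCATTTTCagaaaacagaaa
Isg15 (chr4:156200863-156200908, minus strand): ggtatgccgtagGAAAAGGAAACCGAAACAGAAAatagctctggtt
Oas3 (chr5:120777713-120777746, minus strand): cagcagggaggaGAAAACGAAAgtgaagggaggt
Stat2 (chr10:128270264-128270297, plus strand): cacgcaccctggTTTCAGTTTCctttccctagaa
Bst2 (chr8:71537575-71537614, minus strand): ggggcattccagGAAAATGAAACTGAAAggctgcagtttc
Ifit3 (chr19:34583361-34583428, plus strand): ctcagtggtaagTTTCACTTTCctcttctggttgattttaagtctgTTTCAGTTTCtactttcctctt
Ifit3b (chr19:34607757-34607824, plus strand): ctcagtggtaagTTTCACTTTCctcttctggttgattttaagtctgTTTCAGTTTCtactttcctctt

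All 38 genes were detected in every library. Per kilobase of exon, the highest mean levels were those of Isg20, an RNA exonuclease, at 12.04 CPM per kb, Rsad2 (viperin), a radical enzyme that makes a chain-terminating nucleotide, at 11.96 CPM per kb, and Bst2 (tetherin), which holds budding virus at the cell surface, at 10.1 CPM per kb. Bst2 had 7.004, 8.69, 8.095 and 6.32 CPM in CKO loaded and 6.39, 14.3, 9.05 and 10.7 CPM in CKO non-loaded ulnae of mice 688, 691, 693 and 698, against 6.69 to 14.2 CPM (median 9.72) in WT loaded and 7.41 to 13.0 CPM (median 7.94) in WT non-loaded ulnae. The lowest means were Ifi44 at 0.242, Mx2 at 0.360 and Mx1 at 0.532 CPM per kb. Mx2, annotated as a polymorphic pseudogene, had the lowest total, with 22 to 64 counts in a library. Most laboratory strains carry defective Mx1 and Mx2 alleles, and the strain here is not given.

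Some members varied widely between libraries and others little. The highest library exceeded the lowest by 9.48-fold for Isg15, 9.23-fold for Rsad2, 7.66-fold for Oasl1, 5.40-fold for Oas3 and 5.36-fold for Isg20, against 1.47-fold for Ifi35 and 1.69-fold for Ifit2. The median standard deviation within groups was 0.36 on the log2 scale for the 38 genes and 0.35 for all genes tested. 3 libraries carried many of the high values, namely CKO non-loaded 691, WT loaded 694 and WT non-loaded 699.

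**Figure D1:**
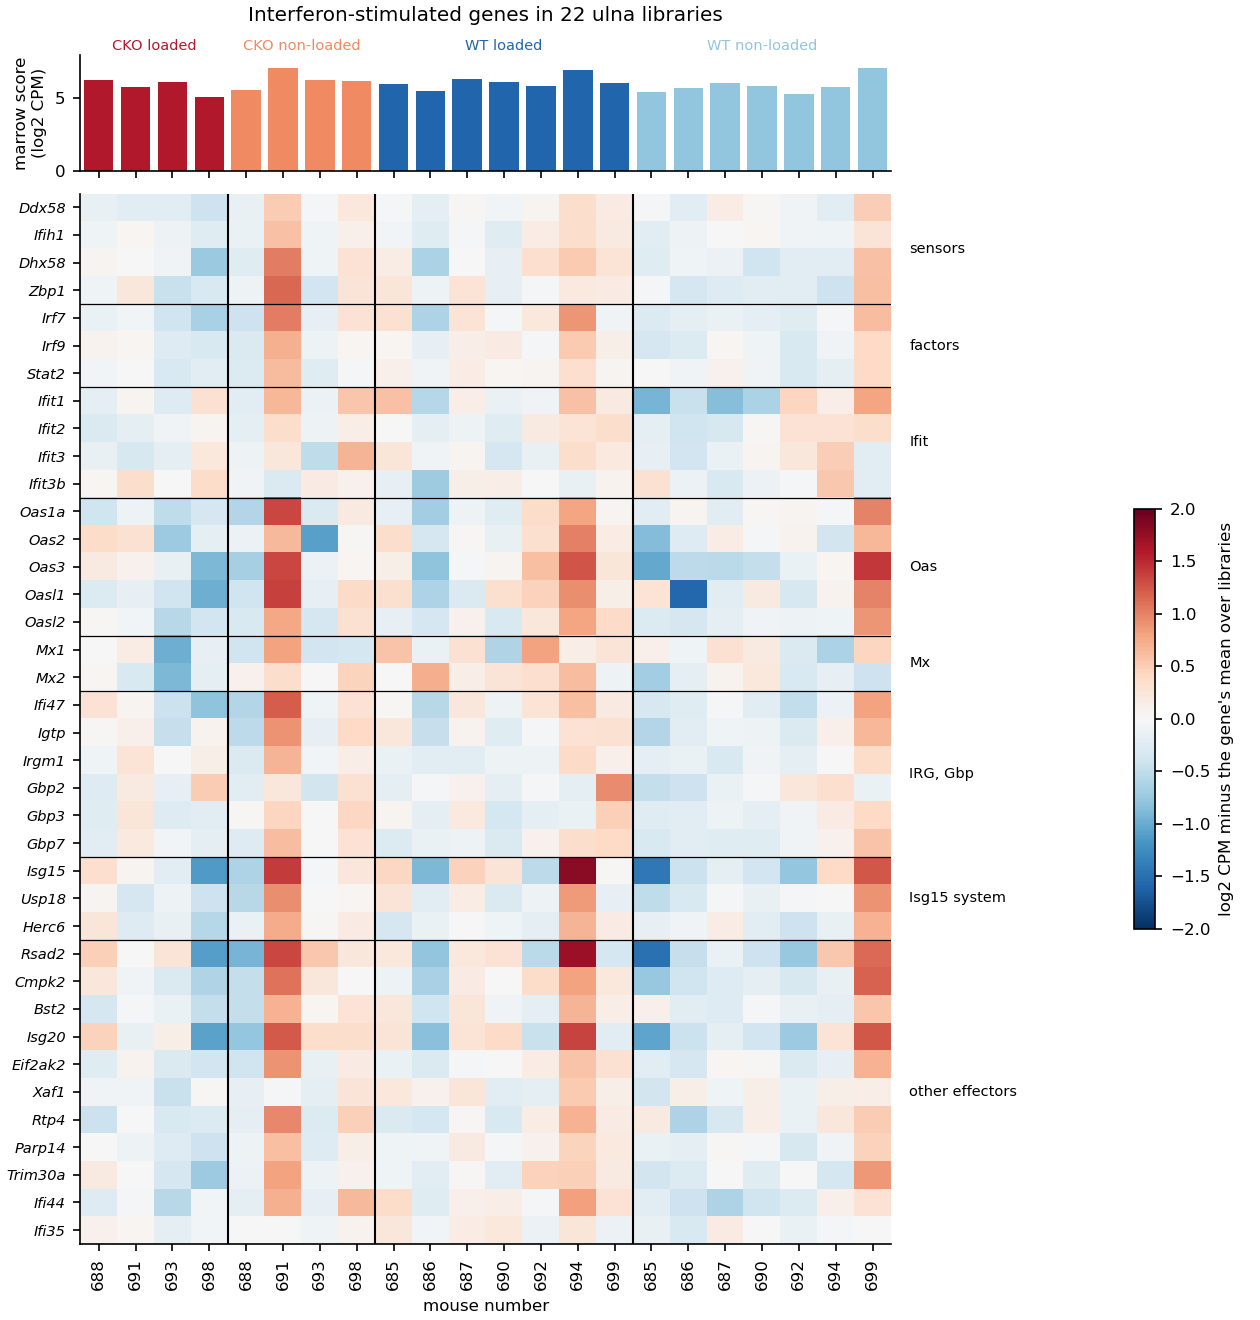
Heat map of the 38 genes, grouped by role, in 22 libraries; colour gives log2 CPM minus the gene's mean over all libraries, and bars above give the marrow score (mean log2 CPM of erythroid, neutrophil and B lineage marker lists) of each library. CKO non-loaded 691, WT loaded 694 and WT non-loaded 699 are red over most rows and have the 3 highest bars, at 7.08, 6.93 and 7.08.

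In mice with the Tlr4 deletion the members tended to lie lower in the loaded limb, without any passing the test. No member passed the threshold (edgeR quasi-likelihood test, lowest Benjamini-Hochberg adjusted p = 0.739), where 0.0160% of all genes tested were called. 35 of the 38 log2 fold changes, loaded over non-loaded, lay below 0 and 3 above, with a median of -0.40, while 48.3% of all genes lay above 0 with a median of -0.012. Members moved together across libraries (mean correlation over pairs 0.56 with the group means removed). Counts of members on 1 side of 0, here and in the comparisons below, are therefore not independent observations. At an unadjusted p under 0.05 there were 4 members, all lower in loaded ulnae, against 3.60% of all genes, 375 lower and 302 higher. The medians by role were -0.45 for the 4 sensors, -0.25 for the 3 transcription factors, -0.21 for the 4 Ifit genes, -0.49 for the 5 Oas genes, -0.38 for both Mx genes, -0.28 for the 6 immunity-related GTPases and guanylate-binding proteins, -0.40 for the 3 genes of the Isg15 system and -0.43 for the 11 other effectors. Marker lists of blood cells moved the same way: 13 of 14 erythroid, 15 of 15 neutrophil, 12 of 12 B lineage, 14 of 14 T and NK and 11 of 13 macrophage genes were below 0, and 15 of 15 muscle genes were above 0, none of them called. In bulk bone, fewer cells of a type and less RNA per cell cannot be told apart. The members' median was -0.13 without mouse 691, -0.54 without mouse 688 and -0.56 without mice 686 and 688, and no member was called in any of these fits.

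Ddx58, which encodes the RNA sensor RIG-I (ENSMUSG00000040296, chromosome 4, 40203773 to 40239828, GRCm38), had the smallest p in CKO mice. It had 20.9, 20.1, 20.2 and 17.4 CPM in CKO loaded ulnae of mice 688, 691, 693 and 698, against 20.9, 33.0, 22.6 and 26.8 CPM in CKO non-loaded ulnae of the same mice. It was the only member whose CKO groups did not overlap, though both limbs of mouse 688 round to the same value, and 2.09% of all genes showed such a separation. The log2 fold change was -0.40 ± 0.15 (SE, edgeR adjusted p = 0.739), -0.26 without mouse 691 and -0.18 with the marrow and muscle scores as covariates. In WT mice Ddx58 ran between 20.3 and 29.6 CPM (median 23.6) in loaded and between 20.1 and 32.8 CPM (median 22.7) in non-loaded ulnae, a log2 fold change of 0.016 ± 0.12.

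Oasl1, an Oas-like protein that restrains Irf7 translation in mice, had the most negative log2 fold change in CKO mice, -0.90 ± 0.43 (SE, edgeR adjusted p = 0.739). Its level was 1.62, 1.75, 1.497 and 1.002 CPM in CKO loaded ulnae and 1.495, 5.08, 1.75 and 2.57 CPM in CKO non-loaded ulnae of mice 688, 691, 693 and 698. The non-loaded ulna of mouse 691 was the high library, and without that mouse the log2 fold change was -0.50. The CKO groups overlapped. In WT mice Oasl1 ran between 1.29 and 3.73 CPM (median 2.46) in loaded and between 0.663 and 3.90 CPM (median 2.06) in non-loaded ulnae.

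**Figure D2:**
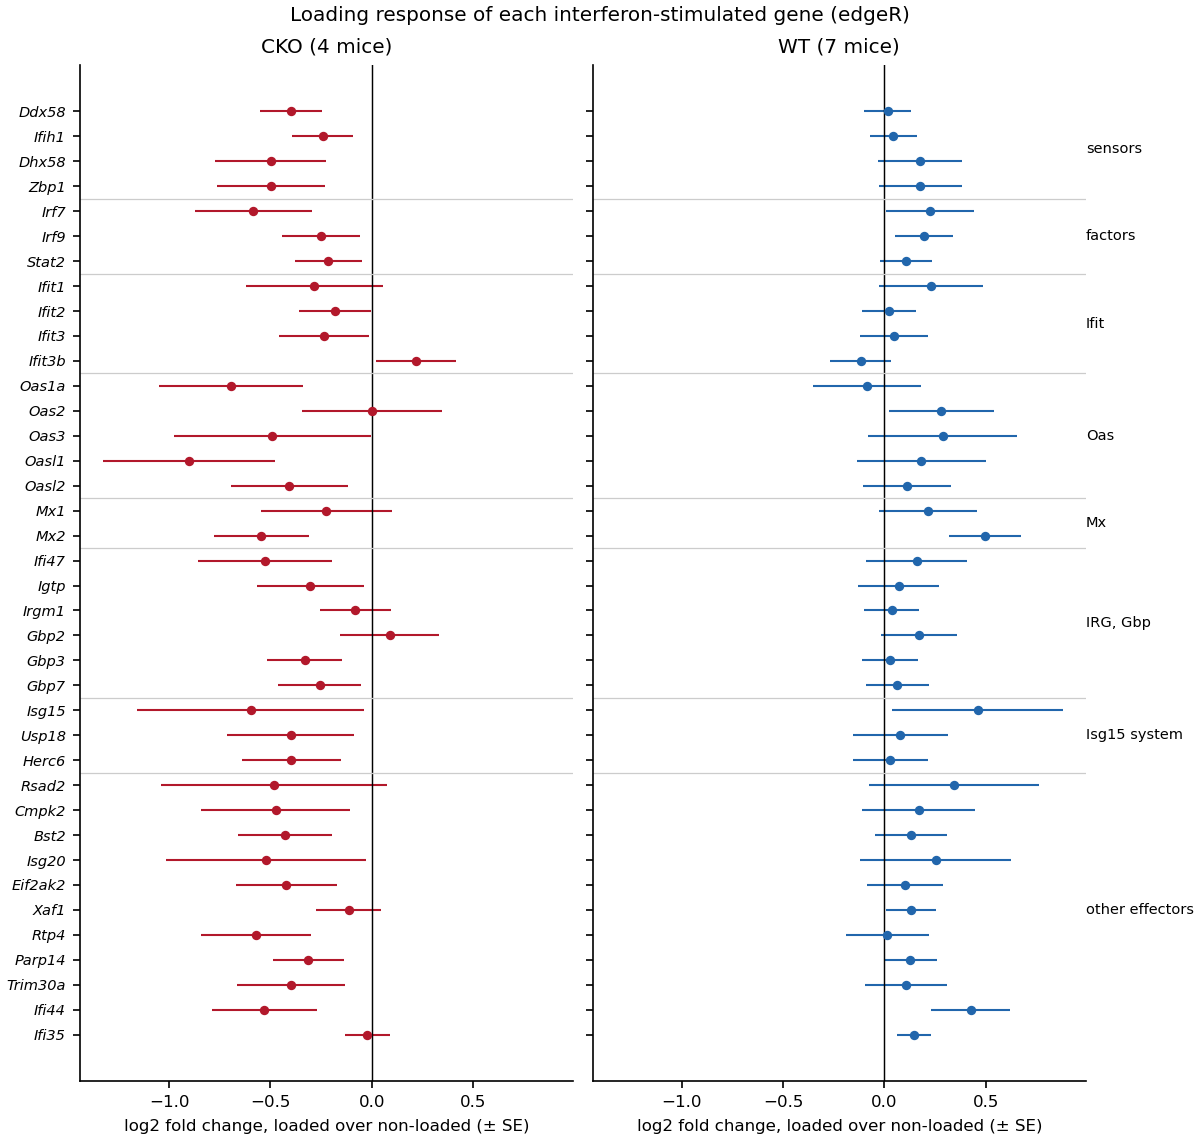
Log2 fold change of each member, loaded over non-loaded, with its standard error (edgeR), in 4 CKO mice (left) and 7 WT mice (right), grouped by role. In CKO mice 35 of 38 points lie left of 0, and in WT mice 36 of 38 lie right of 0; no point passes the adjusted threshold.

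In WT mice the members tended to lie slightly higher in the loaded limb, again without any passing the test. 36 of 38 members had a log2 fold change above 0 and 2 below, with a median of 0.13, while 47.7% of all genes were above 0 with a median of -0.0080. No member was called (edgeR adjusted p = 0.9998 at the lowest), where 0.00532% of all genes were. At an unadjusted p under 0.05, there were 2 members, Mx2 and Ifi44, both higher, against 2.34% of all genes, 229 higher and 210 lower. The role medians ran from 0.036 for the Ifit genes and 0.067 for the GTPases and guanylate-binding proteins to 0.20 for the transcription factors and 0.35 for the Mx genes. Of the marker lists, 14 of 14 erythroid and 11 of 12 B lineage genes were above 0, but 4 of 15 neutrophil, 3 of 15 muscle and 0 of 9 osteoblast genes (osteoblast median -0.23), none of them called. Without mouse 694, 24 members were above 0 with a median of 0.029, and without mouse 699, 35 were above 0 with a median of 0.26.

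Ifi44, an interferon-induced protein with the lowest level per length, and Ifi35, an interferon-induced leucine zipper protein, were among the 3 members with the smallest p in WT. Ifi44 ran between 1.20 and 2.53 CPM (median 1.57) in WT loaded and between 0.936 and 1.74 CPM (median 1.18) in WT non-loaded ulnae, with the loaded limb higher in 6 of 7 mice and a log2 fold change of 0.43 ± 0.20 (SE). In CKO mice it had 1.19, 1.39, 0.978 and 1.38 CPM in loaded and 1.25, 2.35, 1.27 and 2.23 CPM in non-loaded ulnae of mice 688, 691, 693 and 698, with the loaded limb higher in 0 of 4. The WT groups overlapped, and so did the CKO groups. Ifi35 was the steadiest member, at 11.5 to 14.8 CPM (median 13.8) in WT loaded and 10.05 to 14.002 CPM (median 12.1) in WT non-loaded ulnae, a log2 fold change of 0.15 ± 0.084.

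The loading responses of CKO and WT mice were then compared with each other. The difference, CKO response minus WT response, was below 0 for 37 of 38 members and above 0 for Ifit3b alone, with a median of -0.49 against 0.0028 for all genes, of which 50.2% were above 0. As the members move together, the 37 are not separate observations. No member and no other gene passed the threshold (0% called, edgeR adjusted p = 0.697 at the lowest). At an unadjusted p under 0.05 the difference was negative for 4 members, Mx2, Ifi44, Irf7 and Ddx58, and positive for none, against 2.60% of all genes, 273 negative and 215 positive. The blood cell lists lay on the same side, with 14 of 14 erythroid, 15 of 15 neutrophil and 12 of 12 B lineage genes below 0. Above 0 were 15 of 15 muscle, 5 of 6 osteocyte (median 0.70) and 8 of 9 osteoblast genes (median 0.32). The part of these cells in the members' difference was not tested. The median was -0.28 without mouse 691, -0.37 without 694, -0.66 without 699 and -0.64 without mice 686 and 688.

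Mx2, a dynamin-like antiviral GTPase (ENSMUSG00000023341, chromosome 16, 97535308 to 97560900, GRCm38), had the smallest p of the members in 3 of the 5 group comparisons. It had 1.29, 1.02, 0.672 and 1.10 CPM in CKO loaded ulnae and 1.33, 1.60, 1.27 and 1.70 CPM in CKO non-loaded ulnae of mice 688, 691, 693 and 698. In WT mice it ran between 1.17 and 2.08 CPM (median 1.51) in loaded and between 0.772 and 1.45 CPM (median 1.10) in non-loaded ulnae. The loaded limb was thus the lower in 4 of 4 CKO mice and the higher in 7 of 7 WT mice, although the groups of libraries overlapped. No other member showed this split, and 12 of the 18793 genes tested (0.0639%) did. The split counts mice 688 and 686 by their labels, with Mx2 limb differences of -0.049 and 0.88. The loaded libraries of these mice are those whose Ltbp2 went against the label. Were these 2 libraries exchanged, mouse 688 would have 2.08 CPM loaded against 1.33 CPM non-loaded, and the split would not hold. Whether they were exchanged was not tested. In WT mice 687 and 690 the Mx2 limb differences were only 0.059 and 0.052. The log2 fold change with loading was -0.55 ± 0.23 in CKO and 0.50 ± 0.18 in WT mice, and the responses differed by -1.04 ± 0.29 (SE, edgeR adjusted p = 0.697). The difference lay between -1.18 and -0.93 under 22 other settings and was -1.11 without mice 686 and 688, and it was called in none of them. The library labelled WT loaded 686 held the highest Mx2 value of the set, 2.08 CPM.

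CKO and WT were also compared within each limb. In non-loaded ulnae 35 of 38 members had a positive log2 fold change, CKO over WT, with a median of 0.22 against -0.0030 for all genes, of which 49.3% were positive. None was called (0% of all genes, edgeR adjusted p = 0.976 at the lowest), and 1 member, Ifi44 (0.51 ± 0.22, SE), had an unadjusted p under 0.05, against 3.04% of all genes, 161 higher and 411 lower. Of the marker lists, 13 of 14 erythroid, 14 of 15 neutrophil and 11 of 12 B lineage genes were above 0, while 0 of 9 osteoblast and 0 of 6 osteocyte genes were, each with a median of -0.62. The members' direction rested on mouse 691: without it 12 of 38 members were positive and the median was -0.026. Zbp1, a sensor of Z-form nucleic acid that can trigger cell death, is an example. It had 3.52, 8.38, 2.88 and 4.50 CPM in CKO non-loaded ulnae of mice 688, 691, 693 and 698, and between 2.83 and 5.71 CPM (median 3.22) in WT non-loaded ulnae. Its log2 fold change was 0.45 ± 0.23, and 0.030 without mouse 691.

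In loaded ulnae 36 of 38 members were lower in CKO than in WT mice, with a median log2 fold change of -0.29 against -0.042 for all genes, of which 43.7% were positive. None was called (0% of all genes, edgeR adjusted p = 0.601 at the lowest). At an unadjusted p under 0.05, Mx2 (-0.62 ± 0.21) and Ddx58 (-0.30 ± 0.14) were lower, against 6.81% of all genes, 529 lower and 751 higher. Of the marker lists, 13 of 14 erythroid, 15 of 15 neutrophil and 11 of 12 B lineage genes were below 0, and 15 of 15 muscle genes above 0. Ifi44 had the next smallest p, at -0.45 ± 0.23. The members' median was -0.18 without mouse 694 and -0.38 without mice 686 and 688. Neither limb gave a member whose CKO and WT libraries did not overlap, while 0.186% of all genes in non-loaded and 1.23% in loaded ulnae did not.

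The 3 transcription factors of the set had negative log2 fold changes with loading in CKO mice and positive ones in WT mice, none called. Irf7, the master regulator of type I interferon genes, had 13.3, 13.98, 11.1 and 9.33 CPM in CKO loaded and 11.0, 29.6, 13.0 and 17.8 CPM in CKO non-loaded ulnae of mice 688, 691, 693 and 698. In WT mice it ran between 9.55 and 26.8 CPM (median 16.8) in loaded and between 12.1 and 22.4 CPM (median 12.9) in non-loaded ulnae. The responses to loading differed by -0.81 ± 0.36 (SE, edgeR adjusted p = 0.697), and all 4 groups overlapped. Irf9, which binds DNA in a complex with Stat2, had 30.5, 29.9, 24.4 and 23.5 CPM in CKO loaded and 23.9, 47.9, 27.1 and 29.9 CPM in CKO non-loaded ulnae, against 25.9 to 41.7 CPM (median 31.6) in WT loaded and 23.1 to 38.3 CPM (median 27.4) in WT non-loaded ulnae. Stat2 had 23.1, 24.3, 19.5 and 20.6 CPM in CKO loaded and 19.8, 37.3, 20.4 and 23.7 CPM in CKO non-loaded ulnae, against 22.9 to 30.2 CPM (median 25.0) in WT loaded and 19.5 to 31.7 CPM (median 22.9) in WT non-loaded ulnae. In each factor the non-loaded ulna of mouse 691 was the highest of all 22 libraries. With loading in CKO mice, the log2 fold changes of Irf7, Irf9 and Stat2 were -0.58 ± 0.29, -0.25 ± 0.19 and -0.21 ± 0.17 (SE). Without mouse 691 they were -0.30, -0.038 and -0.010, and with the marrow and muscle scores as covariates those of Irf9 and Stat2 turned to 0.052 and 0.082.

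Set out mouse by mouse, the limb difference of the members went with that of the marrow markers. In CKO mice, the median member differed between loaded and non-loaded limbs by 0.17 in mouse 688, -0.73 in 691, -0.16 in 693 and -0.55 in 698 (log2 CPM), where the marrow score differed by 0.71, -1.27, -0.16 and -1.08. In WT mice, the median member differed by 0.32, -0.021, 0.19, -0.00081, 0.24, 0.71 and -0.35 in mice 685, 686, 687, 690, 692, 694 and 699, where the marrow score differed by 0.54, -0.23, 0.26, 0.31, 0.49, 1.18 and -1.06. The signs of both were the same in 10 of 11 mice, the exception being WT mouse 690. 36 of 38 members were lower in the loaded limb of CKO mouse 691, 35 in CKO mouse 698 and 32 in WT mouse 699, the mice with the most negative limb differences of the marrow score. 33 were higher in the loaded limb of WT mouse 694, where the score differed most in the other direction. Muscle genes moved against the marrow score in several of these mice: the muscle score differed by 2.71 in CKO mouse 691, 0.80 in CKO mouse 698, 1.14 in WT mouse 699 and -1.30 in WT mouse 694. What part marrow or muscle content has in the members' differences was not tested.

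**Figure D3:**
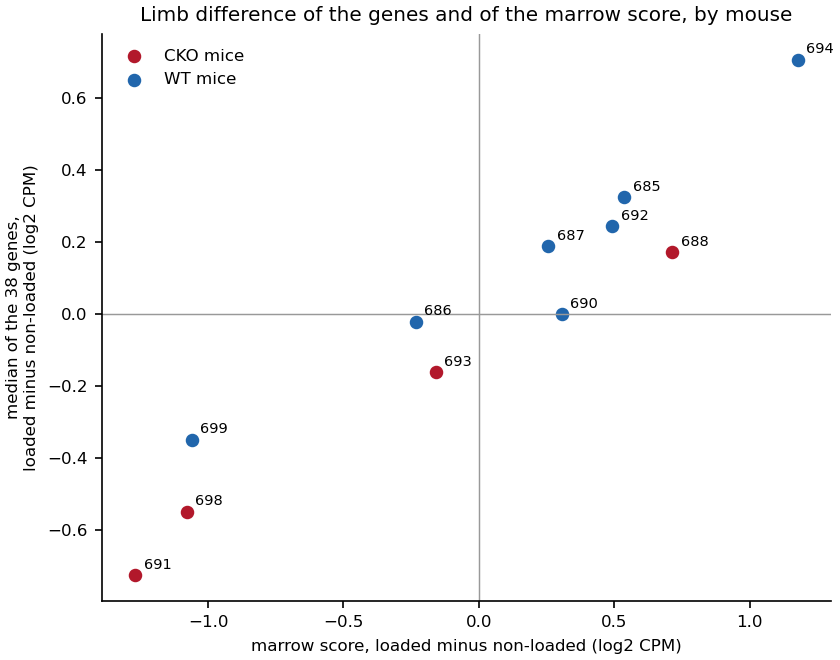
Median limb difference of the 38 members (log2 CPM, loaded minus non-loaded) against the limb difference of the marrow score in 4 CKO and 7 WT mice, labelled by mouse number. CKO mice 691 and 698 and WT mouse 699 lie at the lower left and WT mouse 694 at the upper right. Of the CKO mice, 688 alone lies right of 0, at 0.71, and its loaded library had Ltbp2 against its label.

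With the marrow score as a covariate, the members' median log2 fold change with loading was -0.079 in CKO and 0.034 in WT mice, with 12 and 26 of 38 above 0. The median difference of the responses was then -0.099, and the median genotype difference -0.0024 in non-loaded and -0.10 in loaded ulnae. No member was called in this fit. The difference of responses of Mx2 lay between -1.18 and -0.93 under the settings tried, this covariate among them.

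The slope of each member on the marrow score, fitted beside the 4 group means, was called for 28 of the 38 members, all upward (edgeR, adjusted p under 0.05), where 25.0% of all genes were called higher and 26.8% lower. The median slope was 0.45, against -0.032 for all genes, in log2 change per log2 unit of the score. All 4 sensors, 3 of 3 transcription factors, 5 of 5 Oas genes, 3 of 3 genes of the Isg15 system, 9 of 11 other effectors and 4 of 6 GTPases and guanylate-binding proteins rose with the score, but 0 of 4 Ifit genes and 0 of 2 Mx genes did. Of the members with a promoter entry, 13 of 22 that were called and 5 of 8 that were not held the response element core. With the mouse as a block 26 members were called upward and 1 downward, where 23.2% of all genes were called higher and 23.2% lower. When any 1 mouse was left out, 26 to 29 members were called upward, where 25.0% of all genes were called higher with every mouse in the fit. Without mice 686 and 688, 27 were called upward and 0 downward, where 21.2% of all genes were called higher. Without the non-loaded libraries of 691 and 699, which have the 2 highest scores, 15 were called, where 8.66% of all genes were called higher.

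The steepest slopes belonged to Rsad2, Isg15, Isg20 and Oas3. Rsad2 (ENSMUSG00000020641, chromosome 12, 26442746 to 26456452, GRCm38) had a slope of 1.40 ± 0.15 (SE, edgeR adjusted p = 2.69e-07). Its level was 62.1, 44.9, 53.5 and 20.7 CPM in CKO loaded and 23.5, 112, 64.9 and 52.3 CPM in CKO non-loaded ulnae of mice 688, 691, 693 and 698, against 25.8 to 146 CPM (median 51.4) in WT loaded and 15.8 to 97.7 CPM (median 33.4) in WT non-loaded ulnae. The 3 libraries with the highest marrow scores were its 3 highest. Isg15 (ENSMUSG00000035692, chromosome 4, 156199424 to 156200818), the ubiquitin-like modifier, had 7.81, 6.45, 5.38 and 2.82 CPM in CKO loaded and 4.04, 16.4, 6.03 and 7.27 CPM in CKO non-loaded ulnae, against 3.32 to 21.7 CPM (median 7.41) in WT loaded and 2.29 to 14.7 CPM (median 4.75) in WT non-loaded ulnae. Its slope was 1.39 ± 0.14 (edgeR adjusted p = 1.45e-07).

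Isg20 (ENSMUSG00000039236, chromosome 7, 78913424 to 78920396) had 27.3, 17.9, 21.7 and 9.45 CPM in CKO loaded and 11.6, 46.7, 25.4 and 25.5 CPM in CKO non-loaded ulnae, against 11.1 to 50.7 CPM (median 23.9) in WT loaded and 9.58 to 47.2 CPM (median 15.2) in WT non-loaded ulnae. Its slope was 1.28 ± 0.10 (edgeR adjusted p = 6.82e-09), the smallest p of the set. Oas3, which makes the oligoadenylates that activate RNase L, had 22.2, 20.9, 17.8 and 10.5 CPM in CKO loaded and 12.4, 49.3, 18.2 and 20.1 CPM in CKO non-loaded ulnae, against 11.2 to 47.0 CPM (median 21.3) in WT loaded and 9.67 to 52.2 CPM (median 14.03) in WT non-loaded ulnae. Its slope was 1.10 ± 0.14 (edgeR adjusted p = 3.96e-06). In both genes the non-loaded ulnae of 691 and 699 and the loaded ulna of 694 stood above all other libraries. Slopes of the 3 transcription factors were smaller, at 0.66 ± 0.095 for Irf7, 0.46 ± 0.056 for Irf9 and 0.35 ± 0.066 for Stat2, and Bst2 had 0.50 ± 0.089, all called.

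**Figure D4:**
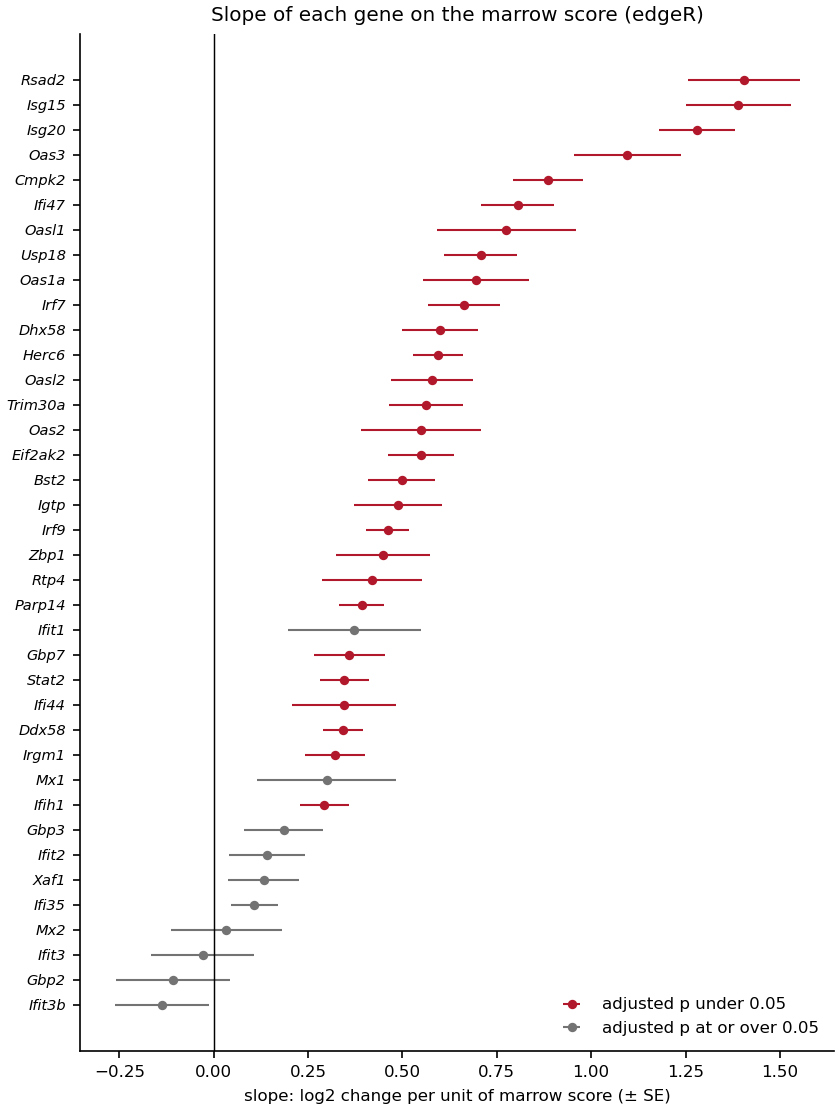
Slope of each member on the marrow score with its standard error (edgeR, log2 change per unit of the score), sorted; red points have an adjusted p under 0.05. Rsad2, Isg15, Isg20 and Oas3 lie above 1, and Mx2, Ifit3, Gbp2 and Ifit3b are the 4 lowest.

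The lowest slopes belonged to Ifit3b, Gbp2, Ifit3 and Mx2, none of them called. Ifit3 and Ifit3b, which encode close copies of an antiviral RNA-binding protein, had slopes of -0.029 ± 0.14 and -0.14 ± 0.12. Ifit3 had 5.19, 4.61, 5.10 and 6.67 CPM in CKO loaded and 5.37, 6.75, 4.04 and 9.21 CPM in CKO non-loaded ulnae of mice 688, 691, 693 and 698, against 4.55 to 7.37 CPM (median 6.01) in WT loaded and 4.41 to 8.13 CPM (median 5.28) in WT non-loaded ulnae. Ifit3b had 2.86, 3.57, 2.78 and 3.60 CPM in CKO loaded and 2.67, 2.28, 3.12 and 2.97 CPM in CKO non-loaded ulnae, against 1.70 to 3.07 CPM (median 2.77) in WT loaded and 2.26 to 4.07 CPM (median 2.58) in WT non-loaded ulnae. Their upstream stretches shown above are the same, and 51.2% of the 50-base windows of Ifit3 transcripts also occur in Ifit3b, so that the split of counts between them is uncertain. Gbp2, a guanylate-binding protein that attacks membranes around pathogens, had 9.62, 13.0, 10.2 and 16.3 CPM in CKO loaded and 9.78, 13.4, 8.91 and 14.2 CPM in CKO non-loaded ulnae, against 9.99 to 22.03 CPM (median 11.2) in WT loaded and 8.27 to 14.5 CPM (median 10.5) in WT non-loaded ulnae. Its slope was -0.11 ± 0.15, and -0.39 with the mouse as a block, where it was called lower (edgeR adjusted p = 0.0250). Mx2 had a slope of 0.033 ± 0.15, and Mx1, with 1.91, 2.12, 0.978 and 1.72 CPM in CKO loaded, 1.45, 3.35, 1.47 and 1.501 CPM in CKO non-loaded, 1.27 to 3.36 CPM (median 2.31) in WT loaded and 1.24 to 2.58 CPM (median 2.06) in WT non-loaded ulnae, had 0.30 ± 0.18.

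**Figure D5:**
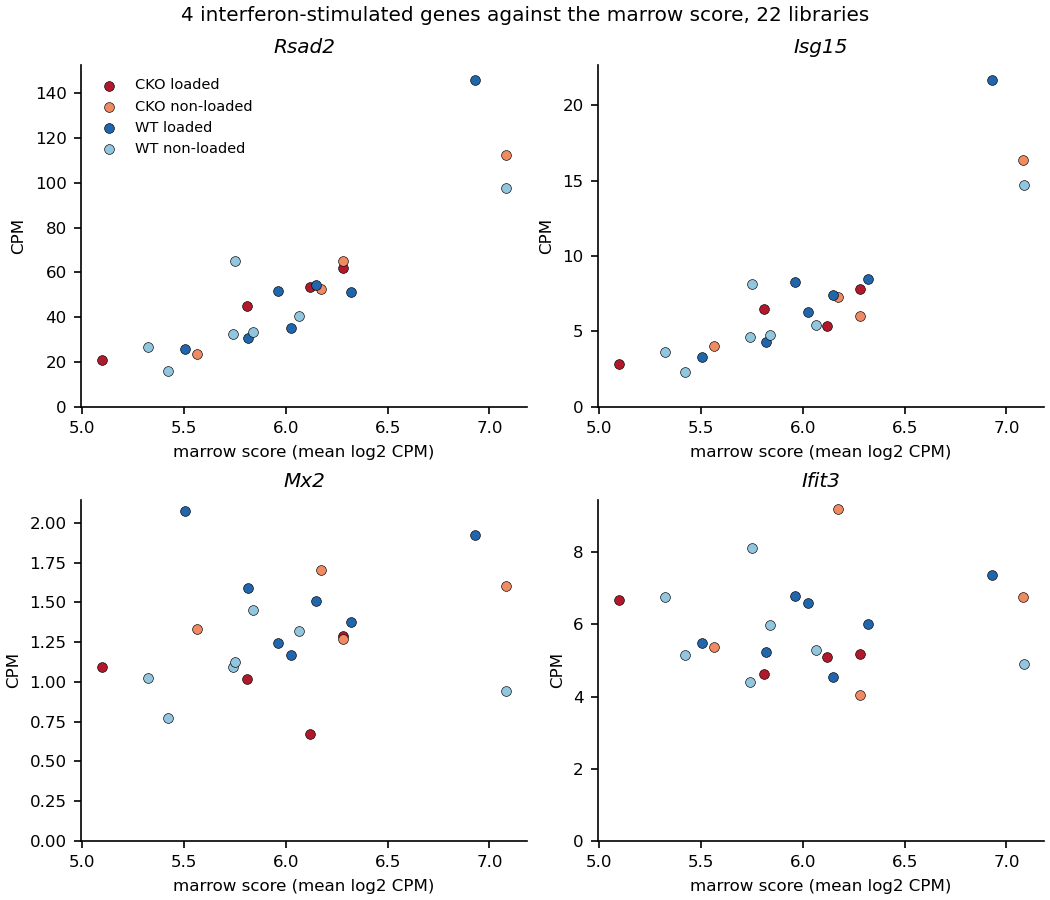
CPM of Rsad2, Isg15, Mx2 and Ifit3 against the marrow score (mean log2 CPM) in 22 libraries, coloured by group. Rsad2 and Isg15 are highest in the 3 libraries with scores of 6.93 to 7.08, while Mx2 and Ifit3 show no such rise, with slopes of 0.033 and -0.029.

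The 3 marker lists behind the score were also set apart. With all 3 in 1 fit, an alternative added after the data were seen, the erythroid slope was called for 5 members, Rsad2 (1.08 ± 0.065, SE), Isg15 (0.96 ± 0.11), Isg20 (0.83 ± 0.054), Oas3 (0.52 ± 0.094) and Cmpk2, a mitochondrial nucleotide kinase (0.30 ± 0.058), where 2.69% of all genes were called higher and 3.02% in either direction (edgeR). The neutrophil slope was called upward for 16 members, where 18.6% of all genes were and 35.9% were called in either direction, among them the sensors Ddx58, Ifih1, Dhx58 and Zbp1, and of the 5 above Oas3 and Cmpk2. The B lineage slope was called upward for Ddx58, Stat2 and Herc6 and downward for Ifit1 (-0.54 ± 0.19), where 25.8% of all genes were called in either direction. The 3 scores come from the same 22 libraries of 11 mice and share their depth and scaling. No fit of the 3 lists with the mouse as a block or with mice left out is given here.

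Other tissues gave slopes in fits of their own. On the macrophage score 28 members were called upward, where 23.0% of all genes were, and on the skeletal muscle score 28 were called downward, where 26.6% were. With the mouse as a block 21 and 22 were called, and with the marrow score beside them 0 and 3. No share of all genes is given for the fits with the block, so the 21 and 22 are not set against a background. With the muscle score beside the marrow score, 6 members had a called marrow slope, Isg15, Usp18, Herc6, Rsad2, Cmpk2 and Isg20, where 3.58% of all genes were called higher. On the score of T and NK cells 0 members were called upward, where 7.02% of all genes were, and Gbp2 alone was called downward (-0.53 ± 0.16, edgeR adjusted p = 0.0260), where 10.4% were. With the mouse as a block no member was called on this score, and the call of Gbp2 was also lost without mouse 694, without mouse 698 and without mice 686 and 688. The 14 T and NK genes had summed levels of 34.0 to 63.1 CPM in CKO loaded, 65.6 to 128 CPM in CKO non-loaded, 63.8 to 106 CPM in WT loaded and 42.3 to 107 CPM in WT non-loaded libraries.

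Members resembled each other across libraries after the group means were removed. The mean correlation over 703 pairs of members was 0.56, and 0.37 after the marrow score was also removed, against 0.0024 and 0.0035 over all pairs of genes tested. These are descriptions over 22 libraries that share mice and scaling. The means keep the sign of each correlation, so that over all genes positive and negative pairs offset each other. Other sets of genes that move in 1 direction were not compared. Rsad2 and Isg20 were the most alike, with r = 0.98, and 0.92 without the marrow score. The mean correlation with the other members was lowest for Ifit3b (-0.081) and Mx2 (0.095) and highest for Oasl2 (0.72). Once the marrow score was removed, Rsad2 and Isg20 had mean correlations of 0.081 and 0.12 with the other members, while Oasl2, Oas1a and Igtp had 0.55, 0.52 and 0.52.

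The rest of the interferon pathway gave no calls in the group comparisons. Of 14 interferon genes looked for, Ifng and Ifnz were matched to a row, with 0 to 5 and 0 to 6 counts in a library, and neither entered the tests. 13 of 16 receptor and Jak-Stat genes, 16 of 19 genes of interferon induction and 55 of 60 other interferon-stimulated genes had a negative log2 fold change with loading in CKO mice, and 12 of 16, 15 of 19 and 50 of 60 had a positive one in WT mice. Over all genes, 48.3% lay above 0 in CKO mice and 47.7% in WT mice. Socs3, a feedback inhibitor of Jak-Stat signalling, had the smallest p among the receptor and Jak-Stat genes with loading in both genotypes. It averaged 49.2 ± 23.2 CPM in CKO loaded and 25.1 ± 12.5 CPM in CKO non-loaded (SD, n = 4), and 31.7 ± 6.11 CPM in WT loaded and 22.3 ± 4.32 CPM in WT non-loaded ulnae (SD, n = 7). Its log2 fold changes were 0.97 ± 0.31 in CKO (SE, edgeR adjusted p = 0.739) and 0.51 ± 0.23 in WT mice. On the marrow score, 10 of the 16 receptor and Jak-Stat genes, 12 of the 19 induction genes and 40 of the 60 other interferon-stimulated genes were called upward. Called downward were Ifngr2, a chain of the interferon gamma receptor (-0.17 ± 0.056), and 4 other interferon-stimulated genes, Gbp10, Ifi205, Gbp6 and Phf11d. Over all genes, 25.0% were called higher on this score and 26.8% lower.

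Some members' counts may include reads of other genes. Besides Ifit3 and Ifit3b, 57.6% of the 50-base windows of Oas1a transcripts occur in Oas1g and 11.8% of those of Igtp in Irgm2, and 9 members in all shared over 5% of their windows with other genes, while 14 shared none. Dhx58, Irf7, Oasl1, Ifi47, Gbp2, Usp18, Eif2ak2 and Ifi35 overlap exons of other genes on the other strand. Irf9, Ifi47, Igtp, Gbp7, Herc6, Rtp4 and Parp14 overlap exons of other genes on their own strand, which no strand setting resolves. The library kit keeps strand, but the strand setting of the counting is not given in the sources used here.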

How the data were processed

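RNA of loaded and non-loaded ulnae was made into libraries that keep strand, per the labels' protocols. STAR and RSEM and the build GRCm38 are named in the submitters' processing notes; the sources used here do not give versions, annotation or strand setting. The deposited tables hold expected counts per gene, all whole, used as estimated counts. Totals of 21999891 to 42833729 counts per library set the precision.

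The members and gene lists were chosen with earlier results of these data known; 1 gene of the pathway lists is not reported here. All 22 libraries were fitted in edgeR 4.0.16 (R 4.3.3, limma 3.58.1) with TMM scaling, filterByExpr (18793 genes), robust quasi-likelihood fits and a mean per group (biological coefficient of variation 0.271; residual degrees of freedom 18). Benjamini-Hochberg adjustment covered every gene tested, and genes under 0.05 were called. A standard error is the log2 fold change divided by the square root of F. Scores are mean log2 CPM (prior count 2) of marker lists; slopes were fitted beside the group means. The fits were tested on simulated data. Genes described singly were the 3 with the smallest p in each comparison, the 4 highest and 4 lowest marrow slopes, the transcription factors, Ifit3 and Ifit3b, the 3 highest and 3 lowest levels per exonic length (GENCODE M21), and the lowest total; of other pathway genes, up to 3 with the smallest p. Ltbp2 was named outside this rule, after its values were seen.

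Both limbs come from the same animal, so mouse numbers pair the libraries. The limbs' deviations from group means correlated at -0.256 to 0.415 (median 0.189), over 0.1 in 7 of 11 mice. Other settings were median-ratio and upper-quartile scaling, no filter, DESeq2 1.42.0, limma voom with the mouse as a random effect, the mouse as a block, tissue scores as covariates, only the compared groups, and leaving out mice or libraries.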

Additional observations from a re-analysis of the deposited data

Results flagged for a closer look

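In groups of 4 or 7 libraries, a library was picked out where its gap to the nearest other took an unusually large share of the group's range (Dixon's criterion at the 95% level). 156 groups were looked at and 19 had such a library. The criterion picks about 1 in 20 by chance where groups are independent and values normal. The genes here share libraries, so the 19 cannot be judged against that rate. 12 of the 19 concern WT non-loaded 699, which had the highest marrow score of its group, 7.08 against 5.32 to 6.06 in the others. It was the highest there for Dhx58 (8.74 CPM), Zbp1 (5.71), Irf7 (22.4), Oas1a (10.4), Oasl2 (21.4), Ifi47 (28.9), Irgm1 (29.4), Usp18 (5.99), Cmpk2 (44.6), Eif2ak2 (29.0) and Trim30a (50.6 CPM). These genes share the library and are not separate events.

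Other libraries stood apart in 1 gene each. Mx1 had 3.35 CPM in CKO non-loaded 691, against 1.45 to 1.501 CPM in the other CKO non-loaded ulnae. Rsad2 had 146 CPM in WT loaded 694, against 25.8 to 54.4 CPM. Gbp2 had 22.03 CPM in WT loaded 699, against 9.99 to 12.2 CPM. Gbp3 had 8.24 CPM in CKO loaded 691, against 5.83 to 6.01 CPM. Dhx58 was low in CKO loaded 698 (3.47 CPM, others 5.53 to 6.003 CPM), Igtp in CKO loaded 693 (13.96 CPM, others 19.4 to 20.6 CPM) and Ifit3b in the library labelled WT loaded 686 (1.70 CPM, others 2.50 to 3.07 CPM).

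Mx2 was picked out because its limb difference was negative in 4 of 4 CKO mice and positive in 7 of 7 WT mice. The limb difference was small in CKO mouse 688 (-0.049) and in WT mice 687 (0.059) and 690 (0.052). The difference of the responses, -1.04 on the log2 scale, did not pass the threshold over all genes (edgeR adjusted p = 0.697).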

How the results depend on the processing

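No member was called in any of the 5 group comparisons under any setting tried. Of all genes, DESeq2 called 22 for loading in CKO, 11 for loading in WT and 2 for genotype in non-loaded ulnae, and the mouse as a replicate block called 5 and 2 for loading in CKO and WT; the block changed no member's call there. Loading in WT called 8 genes with the marrow score, 6 with marrow and muscle scores and 12 with block and marrow score. Loading in CKO called 1 with marrow and muscle scores. Without mice 686 and 688, loading in CKO called 0 and each genotype comparison 1; without mice 691 and 699, loading in CKO called 1 and loading in WT 0. With only the compared groups fitted, loading in CKO called 0 and genotype in non-loaded ulnae 1. Leaving out each mouse gave 0 to 5 genes for loading in CKO, 0 to 2 for loading in WT and 0 to 1 for genotype in non-loaded ulnae.

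The members' median difference of responses was -0.099 with the marrow score, -0.071 with marrow and muscle scores and -0.13 with block and marrow score, and the median genotype difference in loaded ulnae -0.050 with marrow and muscle scores. With both scores the CKO loading values of Irf9 and Stat2 turned to 0.052 and 0.082. Ifit3 with loading in WT turned to -0.038 without mice 691 and 699, and ran from -0.015 to 0.12 leaving out each mouse.

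Marrow slopes with the muscle score beside it were called for 777 genes and 6 members (median 0.28). The median was 0.28 with the erythroid, 0.35 with the neutrophil and 0.13 with the B lineage list alone, the last calling 1463 genes and 0 members. Without the non-loaded libraries of 691 and 699, 4039 genes and 15 members (0.27) were called for marrow, 2643 and 13 (0.39) for macrophage and 5060 and 8 (-0.25) for muscle slopes. Gene counts in this and the next paragraph take calls in both directions among the genes tested, 18793 in the main fit. The member counts are out of 38. With the block 1 member, Gbp2, was called lower on the marrow score, where 23.2% of all genes were. Ifit3 turned to 0.062 with the muscle score and 0.026 with the erythroid list, and ran from -0.088 to 0.073 leaving out each mouse; with the neutrophil list Mx2 turned to -0.038 and Gbp2 to 0.12, and Mx2 ran from -0.055 to 0.12 leaving out each mouse. The cause of these changes was not tested.

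With the marrow score beside them, macrophage slopes were called for 5 genes and 0 members (median 0.26), muscle slopes for 2250 and 3 (-0.13), and T and NK slopes for 2030 and 2 (-0.12). T and NK slopes were called for 135 genes and 0 members with the block, and without mice 686 and 688, added after the data were seen, 1 member was higher and 0 lower. The main fit on this score called 7.02% of all genes higher and 10.4% lower. Leaving out each mouse, T and NK slopes were called for 712 to 4073 genes, with 0 to 4 members higher and 0 to 1 lower, and macrophage slopes for 5415 to 9053 genes. With 3 bases between the repeats, the promoter core was found in 5 members. Counts of 22 to 64 per library limit Mx2, and 4 CKO mice limit every CKO value.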
